A study of Mus musculus with 135 samples.

Results

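Among 14 single ovulated oocytes of young wild-type mice whose titles share the stem Young_WT__246, 3 oocytes (written here as WT_246_10, WT_246_11 and WT_246_15) carried far more cytosolic ribosomal protein transcripts than the other 11. They were chosen for that, as the oocytes in which the 88 ribosomal protein genes summed to more than 4000 CPM (counts per 1000000 counts of all genes in the library). The 3 reached 4433, 8415 and 5394 CPM, while the next oocyte, WT_246_14, stood at 2592 CPM. The other 11 ranged from 959 to 2592 CPM with a median of 1300. The list was extended by 6 ribosomal paralogs after its values were seen. Without these, the 82 remaining genes summed to 3826, 7583 and 4635 CPM in the 3 and to at most 2207 CPM in the 11, so that the same oocytes stood first but WT_246_10 lay under the line.

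The series measured RNA of single metaphase II oocytes from wild-type mice and from mice lacking Tet1 or Tet2, enzymes that oxidise 5-methylcytosine in DNA. All 14 oocytes studied here were labelled wild type, strain C57BL6/129, aged 2 to 4 months, and collected after ovulation, so no genotype, treatment or age separates the 3 from the 11. The oocyte numbers in the titles do differ, as all 3 fall in the run from WT_246_10 to WT_246_15. In that run WT_246_12 and WT_246_14 also had ribosomal sums above all of WT_246_1 to WT_246_8, while WT_246_13 lay among these. What the numbers stand for is not labelled, and their part was not tested. The labels tie no oocyte to an animal, and further samples with the same titles and contradictory age labels were not used. The other 80 oocytes of the series served for comparison: 24 young wild-type oocytes with the stems T148, T211 and T231, 15 young Tet1KO, 16 young Tet2KO, 12 old wild-type, 6 old Tet1KO and 7 old Tet2KO oocytes. The young oocytes among these carried the same age label as the 14, and the old ones a higher age range that does not overlap it. The oocytes of the other stems are described here only beside the 14. Since the 3 were picked by their own transcripts, every difference between them and the 11 is a description and carries no test.

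A fully grown mouse oocyte stops transcription before it matures, and its later RNA levels are set by what was stored and by how fast each message is shortened, masked or destroyed. Messages for ribosomal proteins and for the respiratory chain are abundant in growing oocytes and are among those cleared during maturation. Another class is stored with a short poly(A) tail and is lengthened and translated when meiosis resumes, through a short U-rich cytoplasmic polyadenylation element in the 3′ UTR that the protein CPEB1 binds. Most ribosomal protein messages and some other translation genes begin with a run of pyrimidines, the terminal oligopyrimidine (TOP) motif, through which their translation is controlled together.

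**Figure D1:**
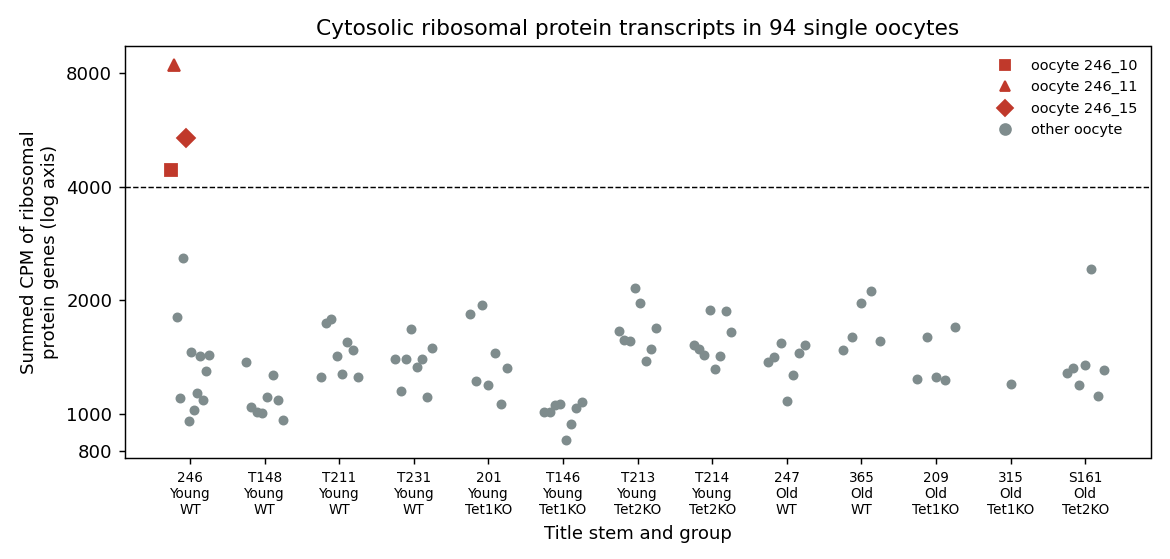
Summed CPM of the 88 cytosolic ribosomal protein genes (log axis) in each of 94 oocytes, by title stem and group. Each point is 1 oocyte, the dashed line marks 4000 CPM, and the 3 red oocytes lie at 4433, 8415 and 5394 CPM, above all other oocytes of the series, whose highest values are 2592 (stem Young_WT__246) and 2426 CPM (stem S161).

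The libraries differed in more than ribosomal messages. Total gene counts were 5860966 in WT_246_10, 9775977 in WT_246_11 and 5215719 in WT_246_15, against 3706004 to 6231133 in the 11. Between 18209 and 20073 genes had at least 1 count in the 3, and 16615 to 17773 in the 11, without overlap. Genes of the mitochondrial genome took 3.19% to 4.08% of counts in the 3 and 0.470% to 2.70% in the 11. The 10 genes of highest count took 16.7% to 22.2% of counts in the 3 and 11.2% to 15.99% in the 11. Of 91 pairs among the 14 libraries, 0 were identical. The part that depth and the number of detected genes play in the results below was not tested.

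All 14 were oocytes by their markers. Of 10 oocyte markers, all had counts in the 3, and they summed to 15505 to 19130 CPM there and to 10291 to 18915 CPM in the 11. Gdf9, an oocyte growth factor, was at 6553, 6043 and 4516 CPM in the 3. Of 10 cumulus and granulosa cell markers, 6 were at 0 counts in all 3 (Amh, Inha, Foxl2, Fshr, Ptx3 and Tnfaip6), and the 10 summed to 7.86 to 18.8 CPM in the 3 and 14.9 to 62.9 CPM in the 11. Of 8 blood and macrophage markers, 5 were at 0 counts in the 3 (both globins, Lyz2, C1qa and Tyrobp), with sums of 10.9 to 14.8 CPM in the 3 against 6.999 to 16.9 CPM. Neither sum was higher in the 3 than in the highest of the 11. In the wider list of 30 cumulus and granulosa genes 6 passed the level filter used below, and among them Nr5a2, a nuclear receptor, was above the 11 in all 3 (20.3, 22.2 and 17.1 CPM against 4.81 to 15.3 CPM), while Serpine2, a protease inhibitor, was below (1055, 841 and 720.5 CPM against 1291 to 2451 CPM).

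Beyond ribosomal messages, many transcripts were higher or lower together with them. A gene was called separated when all 3 oocytes lay above, or all below, all 11 and the medians differed at least 2-fold on the log2(CPM + 1) scale. Of 13057 genes with a mean of at least 1 CPM over the 14, 1267 (9.7%) were separated and higher and 922 (7.06%) separated and lower. The median difference over all 13057 genes was 0.01, and over those with a mean of at least 10 CPM it was -0.17. Across these genes, which are not independent replicates, the 3 oocytes had Spearman's rho values of 0.941 to 0.952 with each other, the 11 a median of 0.943 over their 55 pairs, and the 3 with the 11 a median of 0.864 over 33 pairs.

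The 4 genes that mark the 3 oocytes show the size of the difference. Pttg1, which encodes securin, the inhibitor of separase that holds chromosomes together until anaphase, was at 7529, 7557 and 8461 CPM in WT_246_10, WT_246_11 and WT_246_15. In the 11 it ranged from 2352 to 5278 CPM with a median of 2991, a ratio of medians of 2.53. Oosp1, an oocyte-secreted protein, was at 6834, 7080 and 6401 CPM against 1510 to 4349 CPM (median 2094, ratio 3.26). Eif2s2, the β subunit of the initiation factor eIF2 that brings the first methionine to the ribosome, was at 1938, 2204 and 3220 CPM against 379 to 1342 CPM (median 476, ratio 4.63). In none of these 3 genes did any of the 80 oocytes of the other stems reach the lowest of the 3. The mitochondrial large ribosomal RNA mt-Rnr2 was at 14594, 16883 and 23149 CPM against 1036 to 9058 CPM (median 2557, ratio 6.60), and at most 7696 CPM in the 80. All 4 were part of how the group was described, and their values are shown for size only.

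Start-site sequences of ribosomal messages and of others that were higher with them are shown to compare their pyrimidine runs. Of the ribosomal messages shown, Rps27 was high in WT_246_11 alone. The 30 bases of each run from 10 bases before to 20 bases after the start of transcription, 5′ to 3′, taken from RefSeq promoters of GRCm38.p6; capitals mark a run of at least 6 C or T that takes in a base within 3 bases of the start, and the last 5 genes have none there.
Rps15a, chr7:118116128-118116157, minus strand: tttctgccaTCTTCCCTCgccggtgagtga
Rplp2, chr7:141447641-141447670, plus strand: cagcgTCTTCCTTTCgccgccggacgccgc
Rps21, chr2:180257369-180257398, plus strand: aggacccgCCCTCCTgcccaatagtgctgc
Rps27, chr3:90213629-90213658, minus strand: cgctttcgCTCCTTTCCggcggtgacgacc
Naca, chr10:128035336-128035365, plus strand: tcgTTCTCTTaaagaggaaacccggacgcc
Rpl37rt, chr5:115110249-115110278, minus strand: caggccagagcccgcacccagcagtgcgtg
Eif2s2, chr2:154892887-154892916, minus strand: aaggttggctttactgtacgcctgcgcttt
Atp5e, chr2:174464082-174464111, minus strand: gtccgcgtaccccaccccttccgctactca
Polr2i, chr7:30232064-30232093, plus strand: ggatgacatcgcgcatcatagtcccagccc
Pttg1, chr11:43425962-43425991, minus strand: ccctggctggtcttgaacttgttatgtagc
Of the 84 ribosomal genes with a mean of at least 1 CPM, 64 matched the RefSeq table by symbol, and 30 of them (46.9%) held such a run. It was found in 138 of 765 matched genes (18.04%) among the separated and higher genes outside the ribosomal list, in 112 of 619 (18.09%) of the separated and lower genes, and in 1780 of 8932 (19.9%) of all genes that passed. Among the other TOP messages listed it was in 8 of 17, and among the respiratory chain genes in 12 of 60. Where a gene had several listed starts, the one with the longest run was used. In Naca the marked run lies wholly before the start, and in Atp5e a run of C and T begins just past the allowed distance. Annotated starts need not be those used in oocytes.

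Of the 84 ribosomal protein genes that passed the level filter, 58 were separated and higher and none was lower, with a median log2 difference of 1.85; this list chose the oocytes, so the count only describes the choice. With WT_246_11 left out, 57 were separated and higher. Rps27l, a paralog of Rps27, took the most counts of the list in WT_246_10 and WT_246_15, at 729 and 1043 CPM, and stood at 671 CPM in WT_246_11. In the 11 it ranged from 169 to 476 CPM with a median of 231.5 CPM. Rpl37rt, an Rpl37 copy made by retrotransposition, was at 554, 718 and 710 CPM against 82.6 to 361 CPM, and reads shared with Rpl37 cannot be told apart. Rps15a, of the small subunit, was at 286, 383 and 313 CPM against 41.01 to 135 CPM. The steepest differences were in Rps29 (78.7, 401 and 64.996 CPM against 5.15 to 29.6 CPM) and Rps24 (24.2, 63.9 and 40.8 CPM against 2.71 to 16.7 CPM), both small-subunit proteins. Ribosomal pseudogenes moved with them, at 218 to 449 CPM in the 3 and 39.8 to 127 CPM in the 11, and a read that fits a gene and its copies was counted for each.

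Nuclear genes for subunits of the mitochondrial respiratory chain were measured beside the ribosomal proteins. Of 73 that passed the filter, 40 were separated and higher (54.8%, beside 9.7% of all genes) and 1 lower, and the median log2 difference was 1.40. Uqcrq, a small subunit of complex III, was at 17.9, 109 and 33.7 CPM against 1.20 to 10.9 CPM in the 11. Atp5e, the ε subunit of ATP synthase, was at 25.8, 188 and 33.6 CPM against 2.73 to 12.6 CPM, and Cox7b, of cytochrome c oxidase, at 12.8, 66.4 and 16.7 CPM against 0.580 to 4.59 CPM. In each of these genes WT_246_11 was several times above the other 2, yet WT_246_10 and WT_246_15 still lay above all 11. Summed over the list, the 3 reached 5072 to 6438 CPM and the 11 reached 2408 to 3423 CPM. Proteins of the mitochondrial ribosome, which translates the mitochondrial genome, were separated and higher in 26 of 75 genes (34.7%) and lower in none (median difference 0.85), with Mrpl34 at 28.2, 36.9 and 47.7 CPM against 3.48 to 17.5 CPM.

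The mitochondrial genome showed a large difference in its ribosomal RNAs and a smaller one in its messages. Both of its ribosomal RNAs were separated and higher: mt-Rnr1, of the small subunit, was at 1809, 2474 and 2674 CPM against 143 to 1544 CPM. Of its 13 protein-coding genes, 3 were separated and higher (23.1%, beside 9.7% of all genes). These were mt-Nd3 of complex I (45.7, 50.1 and 61.2 CPM against 3.97 to 31.5 CPM), mt-Co3 (300.3, 228 and 282 CPM against 58.3 to 206 CPM) and mt-Co2 (240.2, 226 and 282 CPM against 47.6 to 200.2 CPM), both of cytochrome c oxidase. Summed, the 13 genes overlapped between the groups, at 13691 to 14481 CPM in the 3 and 3295 to 18400 CPM in the 11. The 2 ribosomal RNAs summed to 16403 to 25823 CPM and 1179 to 10602 CPM, with no overlap. Some mitochondrial genes overlap each other, and a read in the overlap counts for both.

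Among the other messages that carry, or are thought to carry, a TOP motif, 7 of 24 were separated and higher (29.2%, beside 9.7% of all genes) and none lower, with a median difference of 0.62. Naca, which guards nascent chains at the ribosome, was at 98.1, 141 and 153 CPM against 19.8 to 84.8 CPM. Gas5, a TOP host gene of small nucleolar RNAs, was at 46.4, 58.2 and 63.7 CPM against 10.1 to 27.1 CPM. Among translation initiation factors 5 of 38 were higher and 1 lower, shares of 13.2% and 2.63% beside 9.7% and 7.06% of all genes, and the median difference was 0.11. Eif2s2 led them, then Eif1ax (50.2, 81.6 and 62.1 CPM against 12.2 to 38.5 CPM) and Eif3m (55.6, 44.3 and 61.5 CPM against 10.9 to 35.4 CPM). Eif4g2, a scaffold relative of eIF4G, was the lower one, at 167, 181 and 105 CPM against 261 to 576 CPM.

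Of 34 spliceosomal core proteins 12 were separated and higher (35.3%, beside 9.7% of all genes) and none lower, with a median difference of 0.78. Snrpg, a subunit of the Sm ring, was at 645, 694 and 913 CPM against 147 to 433 CPM, and Lsm3, of the related Lsm ring, was at 70.6, 71.7 and 72.5 CPM against 16.5 to 38.3 CPM. Of 30 proteasome genes 8 were higher (26.7%) and 1 lower, with a median of 0.92. Psmc1, an ATPase of the proteasome's cap, was at 46.8, 63.4 and 82.1 CPM against 10.5 to 36.1 CPM.

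**Figure D2:**
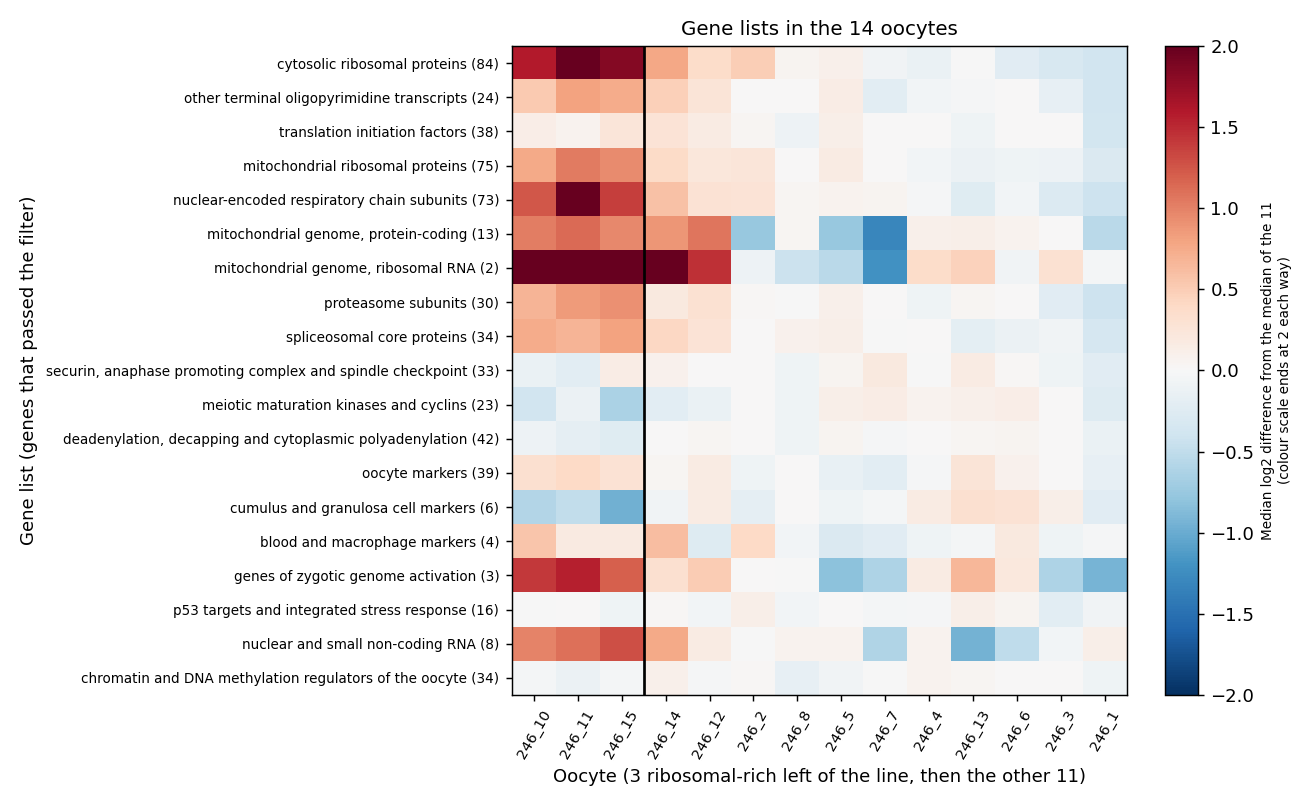
Median over each gene list of the log2(CPM + 1) difference from the median of the 11 oocytes, by list (rows, with the number of genes that passed the filter) and oocyte (columns, the 11 ordered by their ribosomal sum). Red is higher and blue lower, and the 3 ribosomal-rich oocytes share high values of the ribosomal, respiratory chain, mitochondrial ribosomal RNA, proteasome and spliceosome lists, while in the mitochondrial protein-coding list WT_246_12 lies among them.

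The 15 largest rises outside the ribosomal list, among named genes of at least 10 CPM on average, spanned ratios of medians from 6.40 to 10.6. That average took in the ribosomal-rich oocytes, so a gene low in the others could pass through them. Polr2i, a subunit of RNA polymerase II, was at 115, 207 and 183 CPM against 11.7 to 47.0 CPM. It overlaps Tbcb, a tubulin folding cofactor, also among the 15 (112, 153 and 181 CPM against 15.4 to 50.9 CPM), and reads in their overlap count for both. Hist1h4d, an H4 histone gene, was at 21.3, 33.9 and 53.5 CPM against 0.995 to 6.48 CPM. It reached the average of 10 CPM only through the ribosomal-rich oocytes, and its ratio rests on low levels in the others. Tmsb10, which binds actin monomers, was at 55.96, 169.7 and 86.1 CPM against 5.98 to 40.7 CPM. Pfdn1, a subunit of the chaperone prefoldin, was at 67.1, 105 and 99.9 CPM against 9.86 to 56.96 CPM, and Nmt1, which attaches myristate to proteins, was at 128, 145 and 210.5 CPM against 16.1 to 84.6 CPM. Of the rest, Usmg5 belongs to ATP synthase, Ccdc58 and Smim26 to the mitochondrion, and Phkg1 is a catalytic subunit of phosphorylase kinase (27.5, 47.9 and 54.1 CPM against 2.23 to 10.25 CPM). Phkg1 overlaps Sumf2, Usmg5 overlaps Taf5 and Nmt1 overlaps Dcakd. Styk1, a kinase, was a gene whose groups lay close, at 259, 188 and 355 CPM against 22.7 to 180 CPM.

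**Figure D3:**
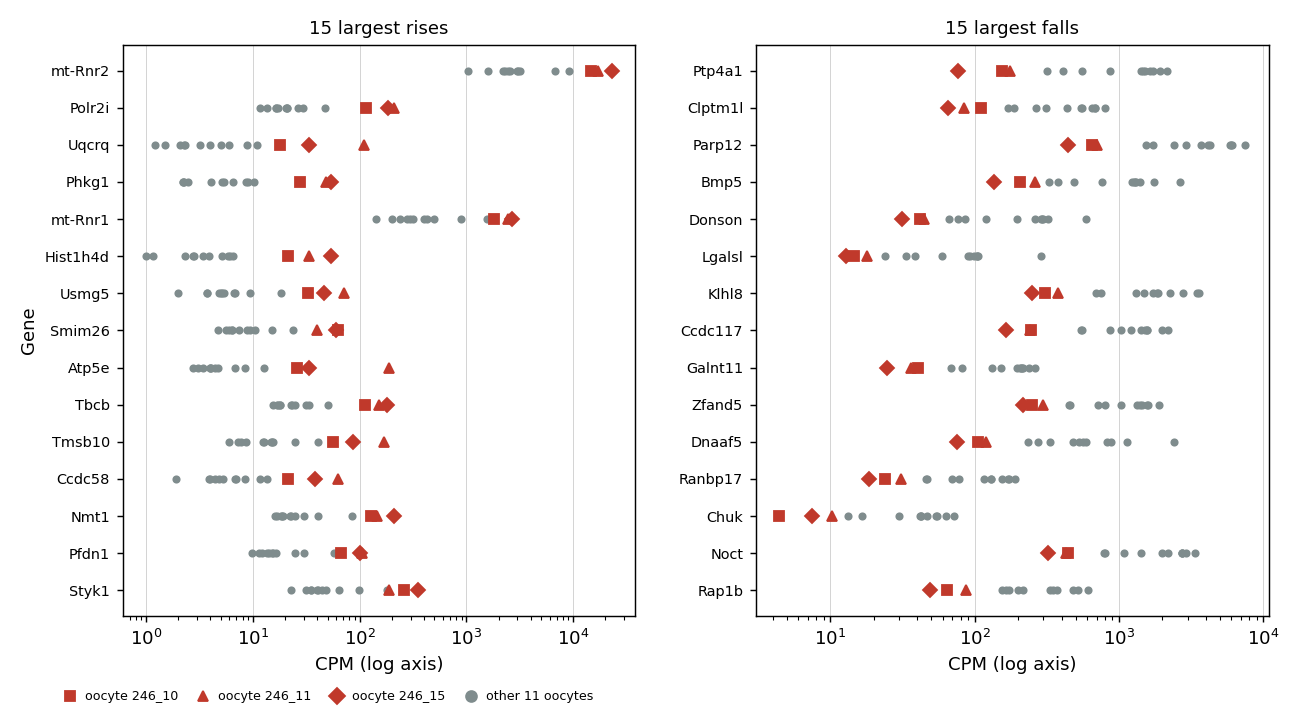
CPM (log axis) of the 15 genes with the largest rises and the 15 with the largest falls in the 3 ribosomal-rich oocytes, in each of the 14 oocytes. Red symbols are the 3 oocytes and grey points the other 11; the groups do not overlap in any gene shown, as the choice of genes requires, and WT_246_15 is the lowest of the 3 in 14 of the 15 falls.

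The 15 largest falls had medians 5.09-fold to 9.40-fold lower in the 3. Ptp4a1, a prenylated phosphatase of the PRL family, was at 156, 177 and 76.7 CPM in the 3 and at 314.9 to 2155 CPM in the 11 (median 1463.3, log2 difference -3.23). Parp12, an ADP-ribosyltransferase, was at 654, 707 and 444 CPM against 1537 to 7513 CPM. Bmp5, a BMP ligand, was at 208, 262 and 136 CPM against 328 to 2644 CPM. Klhl8, an adaptor of cullin 3 ubiquitin ligases, was at 308, 378 and 250 CPM against 698 to 3558 CPM. Noct, the circadian phosphatase nocturnin, was at 445, 430 and 320.2 CPM against 786 to 3357 CPM, and Zfand5, a zinc finger protein that stimulates the proteasome, was at 250.3, 297 and 216 CPM against 451 to 1886 CPM. Rap1b, a small GTPase, Chuk, the kinase IKKα, and Galnt11, which starts O-glycan chains, were lower as well, with log2 differences of -2.34, -2.37 and -2.48.

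The size of these falls depended on what the 3 were set against. Beside the 24 young wild-type oocytes of the other stems, the difference of every one of the 15 but Chuk moved by more than the spread between oocytes, and 13 stayed below 0. Ptp4a1 was then at -1.45, Parp12 at -1.07, Bmp5 at -1.61, Klhl8 at -1.23, Rap1b at -1.02 and Galnt11 at -1.47. Clptm1l and Lgalsl were higher in the 3 than in the 24, with log2 differences of 0.53 and 0.76 in place of -2.67 and -2.59. Noct and Zfand5 were close to even there, at -0.07 and -0.14. Noct had a median of 2187 CPM in the 11 and 334 CPM over the 80. Of the 15, Bmp5 and Galnt11 were lower in all 3 than in every one of the 80, whose lowest values were 350.3 and 44.8 CPM. Against the 24, some named rises moved as well, in both directions. The log2 difference of mt-Nd3 went from 2.20 to 1.24, of mt-Co2 from 1.30 to 0.58 and of Lsm3 from 1.63 to 0.93. That of Dppa3 was 0.87 there. The log2 difference of Rn7s2 went from 1.89 to 4.18 and that of Rn7s1 from 1.56 to 3.81. The stem Young_WT__246 was counted in another table than the T stems, and the stem and the table cannot be told apart here.

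Against the whole series, 611 genes (4.68% of 13057) were higher in all 3 than in all 91 other oocytes, and 575 (4.4%) were lower in all 3, with no minimum fold. Of the 1267 separated and higher genes 567 (44.8%) were among the former, and of the 922 separated and lower genes 404 (43.8%) were among the latter.

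Oocyte-specific messages gave a mixed picture. Of 39 oocyte genes, 10 were separated and higher (25.6%, beside 9.7% of all genes) and none lower, with a median difference of 0.37. Dppa3, the maternal factor Stella that protects DNA methylation in the zygote, was at 2484, 2194 and 2587 CPM against 383 to 1795 CPM. Ooep, of the subcortical maternal complex, was at 660, 838 and 854 CPM and reached 706 CPM in 1 of the 11, so it overlapped. Nlrp5, of the same complex, was at 836, 763 and 818 CPM against 205 to 567.7 CPM. Npm2, the oocyte nucleoplasmin, was at 468, 501 and 608 CPM against 93.6 to 394 CPM. The neighbours Oosp1, Oosp2 and Oosp3 were all higher; Oosp3 was at 3278, 3671 and 2920 CPM against 364.7 to 2695 CPM. The paralogs Omt2a and Omt2b were at 4177 to 4967 CPM and 4855 to 5746 CPM, against 1092 to 2850 CPM and 1416 to 3519 CPM. Padi6, needed for the oocyte's cytoplasmic lattices, lay within the range of the 11, at 3322, 2576 and 2906 CPM against 1644 to 5596 CPM. The zona pellucida genes Zp1 and Zp2 overlapped too.

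Of 23 maturation kinases and cyclins that passed the filter, none was separated and higher and 4 were lower (17.4%, beside 9.7% higher and 7.06% lower of all genes), with a median difference of -0.49. Ccna2, cyclin A2, was at 346, 406 and 262 CPM against 559 to 1296 CPM, and Mastl, the Greatwall kinase that restrains PP2A during M phase, was at 157, 160 and 78.8 CPM against 216 to 396 CPM. Wee2, the oocyte inhibitor of CDK1, was at 542, 514 and 346 CPM against 721 to 1254 CPM. Ccnb1, cyclin B1, did not overlap between the groups either (2302, 2203 and 1397 CPM against 2925 to 5968 CPM), but its log2 difference of -0.99 fell just short of 2-fold. Mos, the kinase that holds metaphase II arrest, lay above the 11 in all 3, at 1731, 1299 and 1208 CPM against 608 to 1193 CPM, a log2 difference of 0.56 that was under 2-fold. Summed over the list, the 3 held 4532 to 6615 CPM and the 11 held 7520 to 12279 CPM.

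Securin, the anaphase-promoting complex (APC/C) and the spindle checkpoint had 4 of 33 genes separated and higher (12.1%, beside 9.7% of all genes) and 3 lower (9.09%, beside 7.06%), shares near those of all genes, with a median difference of -0.14. With Pttg1 the small APC/C subunits Cdc26 (105, 123 and 118 CPM against 32.1 to 66.9 CPM), Anapc15 (33.4, 39.6 and 30.1 CPM against 10.6 to 26.4 CPM) and Anapc13 were higher. Sgo2a, shugoshin, which protects centromeric cohesin, was nearly the same in the 3 (52.9, 52.2 and 52.5 CPM) and at 92.8 to 164 CPM in the 11. Bub1b, the checkpoint kinase BubR1, was at 607, 658 and 396 CPM against 934 to 1798 CPM. Fbxo43, the APC/C inhibitor Emi2, was at 137, 124 and 94.9 CPM against 195 to 353 CPM.

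Genes for mRNA tail shortening, decapping and cytoplasmic polyadenylation were also near the shares of all genes, with 3 of 42 separated and higher (7.14%, beside 9.7%) and 4 lower (9.52%, beside 7.06%), and a median of -0.09. Cpeb1, which binds the polyadenylation element, was at 199.97, 167 and 129 CPM against 206 to 624.6 CPM. Cnot7, a catalytic deadenylase of the CCR4-NOT complex, was at 616, 700.0 and 400.1 CPM against 1029 to 1846 CPM, and Dcp1a, a decapping cofactor, and Ybx1, an mRNA-packaging protein, were lower too. Lsm14b, an oocyte mRNP protein, was higher, at 206, 227 and 304 CPM against 34.5 to 122 CPM, as were Pan3 and Pabpn1.

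Other lists gave few separated genes. Of 34 chromatin and DNA methylation regulators, Dppa3 was higher (2.94%, beside 9.7% of all genes) and 3 were lower (8.82%, beside 7.06%): Smarca5, a chromatin remodeller, and the histone demethylases Kdm1b (86.2, 123 and 62.1 CPM against 172 to 344 CPM) and Kdm6a (95.5, 116 and 86.3 CPM against 170.2 to 275 CPM). The Tet genes overlapped: Tet3 was at 716, 764 and 744 CPM against 569 to 886 CPM, and Tet1 and Tet2 were at most 5.56 and 1.23 CPM in the 3. Of 16 genes of the p53 and integrated stress responses that passed, Ddit3 was higher (6.25%, beside 9.7% of all genes). Its mean was 5.91 CPM in the 3 and 0.998 CPM in the 11, so it passed the filter only through the 3. Mdm2 and Trp53inp1 were lower (12.5%, beside 7.06%), with Mdm2 at 117, 126 and 77.6 CPM against 230.3 to 391 CPM. Of 23 genes of zygotic genome activation 3 passed the filter, and 2 of them were higher (66.7%, beside 9.7% of all genes). These were Tcstv1 (122, 134 and 142 CPM against 23.3 to 72.6 CPM) and Tcstv3. Of 8 genes that passed in the list of nuclear and small non-coding RNAs, 4 were higher: Rn7s1, Rn7s2, Rn7sk and Lars2. Lars2 is a protein-coding gene, so this count is not one of non-coding RNAs alone. The signal recognition particle RNAs Rn7s1 and Rn7s2 (46.6 to 79.6 CPM against 3.48 to 34.2 CPM) overlap other annotated genes. A read that fits both was counted for each, so they are not separate observations. Rn7sk had a mean of 4.67 CPM in the 3 and 0.852 CPM in the 11, so it passed the filter only through the 3. Kcnq1ot1, an imprinted antisense RNA counted without strand, was the 1 lower gene of this list (12.5%, beside 7.06% of all genes).

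The differences varied with gene length. By the summed exon length of the gene, and leaving out the ribosomal list, 20.5% of the shortest quartile (38 to 2008 bases, 3211 genes) were separated and higher and 3.52% lower. In the longest quartile (6303 to 123179 bases, 3264 genes) the shares were 3.62% and 9.38%. The median level of the shortest quartile was 5.63 CPM and that of the longest 19.9 CPM, and the part of this in the shares was not tested. Among genes of at least 10 CPM on average the shares in the shortest quartile were 27.9% and 6.10%, and in the longest 4.31% and 13.54%. By oocyte, the median log2 difference of the shortest quartile from the median of the 11 was 0.48, 0.50 and 0.49 in WT_246_10, WT_246_11 and WT_246_15, and between -0.23 and 0.25 in the 11. In annotated mRNAs, the median 3′ UTR was 367 bases in 827 separated and higher genes outside the ribosomal list, 1542 bases in 767 separated and lower genes and 1023 bases in all 10455 genes with one.

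Short motifs were counted at the 3′ ends of the messages, among them the polyadenylation element. Its 2 forms TTTTAT and TTTTAAT were searched on the sense strand in the last 100 bases of the main GENCODE M21 transcript (GRCm38), where the 3′ UTR had at least 100 bases. They were found in 245 of 761 separated and lower genes (32.2%), 130 of 740 separated and higher genes outside the ribosomal list (17.6%) and 2120 of all 9986 genes (21.2%). Among 3′ UTRs of 100 to 479 bases the shares were 33 of 74 (44.6%), 59 of 381 (15.5%) and 20.2%, and among those of 2169 bases or more they were 26.6%, 23.5% and 22.6%. Outside the ribosomal list, 11.6% of the genes with it were separated and lower and 6.15% higher, and of 7838 genes without it 6.58% were lower and 7.78% higher. Other AT-rich motifs differed in the same direction, and the part of base composition was not tested. The polyadenylation signal AATAAA was in the same window in 72.4% of lower, 64.7% of higher and 66.9% of all genes, and its variant ATTAAA in 23.3%, 19.1% and 21.8%. ATTTA was there in 29.8%, 20.95% and 24.2%, and the Pumilio motif TGTANATA in 6.83%, 3.78% and 5.30%. The median GC content of the transcripts was 46.8% in lower, 49.7% in higher and 49.3% in all genes. TTTTAAT followed by AAA also holds AATAAA. Annotated ends need not be those used in oocytes, and a match is not shown to be bound.

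Sites of the element in named genes are given below as 30 bases of the transcript strand, 5′ to 3′, with the element in capitals; these are all such sites in the separated genes selected for naming whose 3′ UTR had at least 100 bases, 1 site per gene, of which the first 5 belong to lower genes and the last 6 to higher genes.
Parp12, chr6:39086473-39086502, minus strand: tccaggtgtggaTTTTATgtcacaatgaga
Chuk, chr19:44073365-44073394, minus strand: aatgtgaaatgcTTTTATattctagttttt
Noct, chr3:51251615-51251644, plus strand: ttacaaagagtgcTTTTAATatcttgtctc
Sgo2a, chr1:58025825-58025854, plus strand: acttatgtatcaTTTTATcattaattctct
Kdm6a, chrX:18279900-18279929, plus strand: tttaaagggagTTTTAATacaggcttttca
Ccdc58, chr16:36092047-36092076, plus strand: aatcaattgctaTTTTATactgattctgta
Rps24, chr14:24496876-24496905, plus strand: ataaaggctgtaTTTTATcaatttgtatgg
Rps27l, chr9:66949483-66949512, plus strand: gtcagtttttcaataaagTTTTAATtatgg
Eif1ax, chrX:159389887-159389916, plus strand: attcagtggatgTTTTATgctgcacaaata
Lsm7, chr10:80852840-80852869, minus strand: tttgttttgttTTTTAATaaaattgcccat
Lsm3, chr6:91522596-91522625, plus strand: aaattaaatttgatgtttccttTTTTATta
Ptp4a1, the largest fall, has none in its last 100 bases, nor has Pttg1, whose annotated 3′ UTR is 55 bases long.

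**Figure D4:**
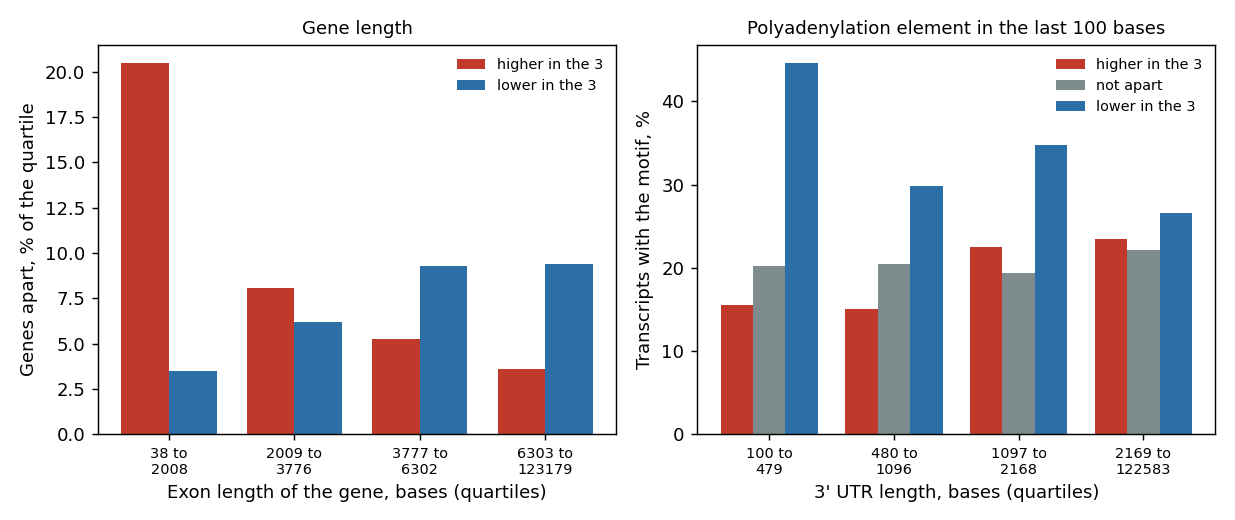
Left, share of genes separated and higher (red) or lower (blue) in the 3 ribosomal-rich oocytes, by quartile of exon length, without the ribosomal list. Right, share of transcripts with TTTTAT or TTTTAAT in the last 100 bases, by quartile of 3′ UTR length, for separated and higher, not separated (grey) and separated and lower genes; bars start at 0, higher genes are most frequent among short genes (20.5%), and the motif is most frequent among lower genes in each quartile.

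The 3 oocytes differed among themselves. Of the 84 ribosomal genes that passed, WT_246_11 was the highest of the 14 oocytes in 75, WT_246_15 in 5 and WT_246_10 in 3. In addition, 79 genes (0.605% of 13057) were at least 4-fold higher in WT_246_11 than in any of the other 13 on the CPM + 1 scale, a list chosen after its values were seen. The mean used by the level filter took in WT_246_11, so a gene low in the other 13 could pass through that oocyte alone. Of these 79, 22 were cytosolic ribosomal proteins, 9 respiratory chain subunits and 3 mitochondrial ribosomal proteins. These lists held 84, 73 and 75 of the 13057 genes, and the ribosomal list chose the oocytes. The median exon length of the 79 was 1268 bases against 3776 bases for all genes that passed. Cox17, a copper chaperone of cytochrome c oxidase, was at 338 CPM in WT_246_11, 3.58 CPM in WT_246_10 and 11.7 CPM in WT_246_15. Rps27 was at 147 CPM in WT_246_11, 1.54 CPM in WT_246_10 and 0.767 CPM in WT_246_15, the latter 2 within the 0.249 to 7.58 CPM of the 11. Hint1, a nucleotide hydrolase, was at 170.3 CPM against 7.68 and 4.22 CPM, and Rpl39 at 130.2 CPM against 9.21 and 8.82 CPM.

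Summed over the 79 genes, WT_246_11 held 5564 CPM, WT_246_10 held 474 CPM and WT_246_15 held 593 CPM. Oocyte WT_246_2, which is not one of the 3, came next with 425 CPM, and the remaining 10 held 88.3 to 275 CPM. Second of the 14 was WT_246_15 in 30 of the 79 genes, WT_246_2 in 25 and WT_246_10 in 16, and 5 of the 22 ribosomal genes were separated and higher in all 3. WT_246_2 was second, for example, in Cox17 (21.2 CPM) and Rps27 (7.58 CPM). Over the 80 oocytes of other stems the sum ranged from 99.3 to 465 CPM. The 22 ribosomal genes made up 22.5% of the ribosomal sum in WT_246_11, 4.12% in WT_246_10 and 3.70% in WT_246_15. Without them the sums were 6520, 4250 and 5194 CPM, still above the 11, whose highest was 2496 CPM. The WT_246_11 library was also the deepest of the 14 and had the most genes detected, and the part of this in its separate genes was not tested.

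**Figure D5:**
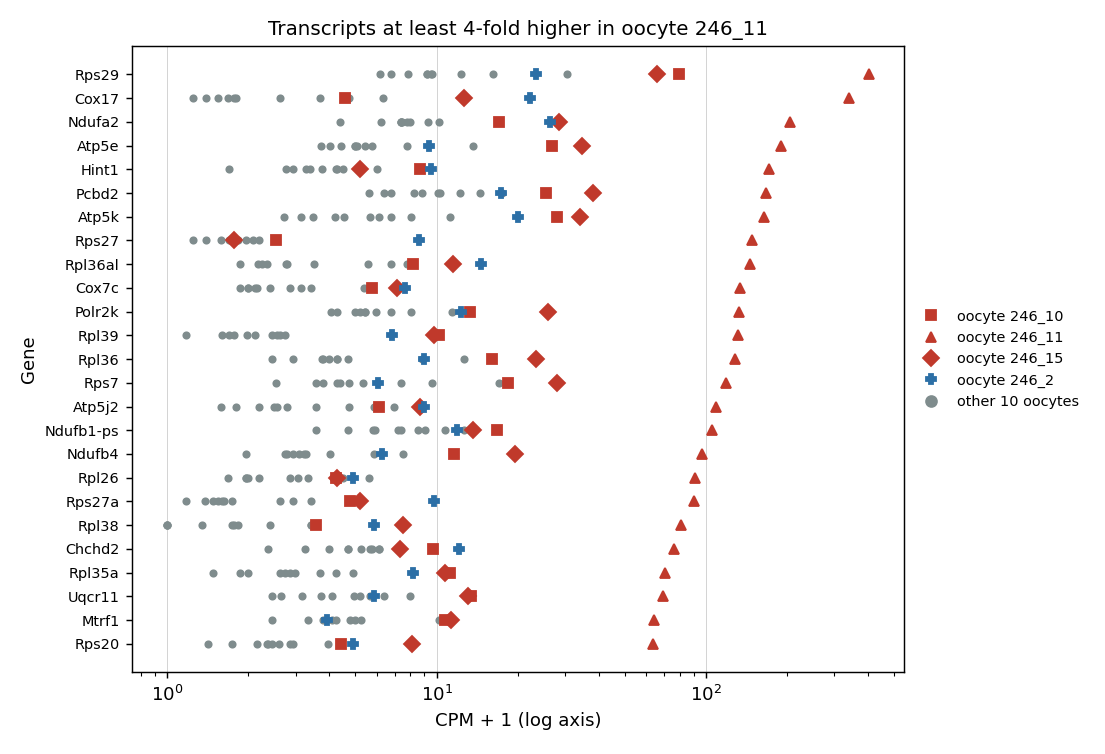
CPM + 1 (log axis) in each of the 14 oocytes for the 25 named genes with the highest CPM in WT_246_11 among those at least 4-fold higher there than in any other oocyte. Red triangles (WT_246_11) stand alone at the right, as the choice of genes requires. WT_246_10 and WT_246_15 (red squares and diamonds) and WT_246_2 (blue crosses) lie between them and most of the other 10 oocytes in some genes but not in all.

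Outside the ribosomal list WT_246_15 was most often the extreme one. Among the 1209 separated and higher genes outside the ribosomal list it was the highest of the 3 in 584, WT_246_11 in 426 and WT_246_10 in 199. Among the 922 separated and lower genes it was the lowest in 684. Of the 11, WT_246_14 and WT_246_12 stood in between. Oocyte WT_246_14 was the nearest of the 11 in 748 of the 1209 higher and 477 of the 922 lower genes, and WT_246_12 in 168 and 150. Over the 1209 genes the median log2 difference from the median of the 11 was 1.38, 1.55 and 1.59 in the 3, 0.75 in WT_246_14, 0.44 in WT_246_12 and between -0.29 and 0.00 in the other 9. Over the 922 lower genes it was -1.26, -1.23 and -1.63 in the 3, -0.56 in WT_246_14 and -0.32 in WT_246_12. With these left out of the 11, a choice made after their values were seen, 1685 genes were separated and higher and 1109 lower.

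The other stems were not used by the rule. In 11 stems with 5 to 8 oocytes each, the ribosomal sum varied 1.26-fold to 2.175-fold from lowest to highest oocyte. Within a stem, the summed CPM of the 1209 genes had a positive rank correlation with the ribosomal sum in 9 of 11 stems (median rho 0.714), and the summed CPM of the 922 lower genes in 1 of 11 (median rho -0.429). For the higher genes the exceptions were the old stems Old_WT_247 (rho -0.179) and Old_Tet1-/-_209 (-0.200), and Old_WT_247 was also the stem with a positive value for the lower genes (0.393). Gene by gene, the median rho of the higher genes was above that of all genes in 10 of 11 stems, and the median of the lower genes was below it in 9. The share of higher genes with a rho above 0 ran from 53.8% in Old_WT_247 to 83.6% in T213, and that of lower genes from 14.4% in T213 to 63.9% in Old_WT_247. Of all genes the share was 45.3% in Old_WT_247 and 47.9% in T213. Among the 11 oocytes of stem Young_WT__246 outside the 3, the rho was 0.582 for the higher and -0.382 for the lower genes, and without WT_246_12 and WT_246_14 it was 0.233 and 0.133. These correlations are over few oocytes that share a stem, and each sum is a share of the same total, so no p is given.

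By list, the respiratory chain and the mitochondrial ribosome followed the ribosomal sum in 11 of 11 stems (median rho 0.857 and 0.929), as did the spliceosome (0.750) and the proteasome (0.600). Eif2s2 followed it in 11 of 11 stems as well (median 0.786) and Pttg1 in 8 (0.643). Oosp1 and mt-Rnr2, which mark the 3 as strongly, did so in 7 and 6 stems, with medians of 0.095 and 0.071. Oocyte markers had a median of 0.143 and mitochondrial protein-coding genes one of 0.024. Within the 9 oocytes of stem Young_WT__246 that were neither among the 3 nor WT_246_12 or WT_246_14, the respiratory chain had a rho of 0.850 with the ribosomal sum, and mt-Rnr2 had -0.450. The total count of the library had a positive rho with the ribosomal sum in 6 of 11 stems (median 0.095).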

How the data were processed

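Single oocytes were sequenced 1 library each. The authors deposited gene counts, not normalized, in 2 tables; per the file headers they were made with featureCounts 1.6.2 on GENCODE M17 with a mapping quality of at least 30, multi-mapped and overlapping reads counted for every gene, and no strand option. Alignment used HISAT2 and SAMtools on mm10, per the submitters' processing notes, which give no versions. The 14 oocytes of stem Young_WT__246 come from 1 table, and 94 oocyte columns in all matched a label. Another 39 count columns matched no label, and 39 samples with contradictory labels were not used. The tables hold 53715 genes, of which 95 identifiers had no symbol.

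Counts were scaled to CPM by the total over all genes. Genes with a mean of at least 1 CPM over the 14 oocytes were kept (13057). The mean took in the 3, so a gene low in the 11 could pass through them. Differences are of medians, as log2(CPM + 1), and a gene was called separated when all 3 oocytes lay outside the range of the 11 and the difference was at least 2-fold. No test was run, because the oocytes were chosen by their transcripts and no label names an animal. The members, the 19 gene lists and the rule for named genes were chosen with earlier results of these data known. The rule names the 4 markers, the 15 largest rises and falls among separated genes of at least 10 CPM with a named symbol, up to 3 separated members of each list, the 3 ribosomal genes of highest mean and the Tet genes; other list members named were chosen after their values were seen. The ribosomal list was completed with 6 paralogs after its sum was seen. Alternatives used TMM (edgeR 4.0.16) and DESeq2 1.42.0 size factors in R 4.3.3, other pseudocounts, filters and comparison oocytes. The code of the separation call was run on simulated data of independent genes, which checks the code and bears on no result given here. A CPM is a share of the library, so a rise of some messages lowers the share of others. A gene that the naming rule selects is not reported here.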

Additional observations from a re-analysis of the deposited data

Results flagged for a closer look

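In 55 groups formed by 5 measures (the ribosomal sum and the 4 marker genes) in the 11 other stems, 5 had 1 oocyte far from the rest by Dixon's criterion, where chance gives about 1 in 20. The ribosomal sum of S161_6, an old Tet2KO oocyte, was 2426 CPM, and the next of its 7 was at 1352 CPM. In T213, of young Tet2KO, the oocyte T213_4 stood high in 2 measures, with mt-Rnr2 at 7696 CPM (next 4108 CPM) and Oosp1 at 5366 CPM (next 3459 CPM). The mt-Rnr2 level of T148_1, a young wild-type oocyte, was 3850 CPM (next 2064 CPM). Pttg1 was lowest in T146_1, a young Tet1KO oocyte, at 2911 CPM (next 3587 CPM). The 14 oocytes of stem Young_WT__246 are too many for this criterion.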

How the results depend on the processing

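No paired analysis was possible because the comparison is within 1 stem and its oocyte numbers pair nothing. The counts of separated genes stayed within 1.5 times under 24 of 26 alternatives. A mean of at least 10 CPM left 721 higher genes, and no minimum fold gave 1598 lower genes. The balance of higher and lower genes depended on level. Outside the ribosomal list and at 10 CPM or more, 329, 154, 107 and 91 genes were higher by quartile of exon length, from shortest to longest. In the same quartiles 72, 180, 285 and 286 were lower. Leaving out 1 of the 3 gave 1397 to 1601 higher and 870 to 1190 lower genes. Against the 24 young wild-type oocytes, 1209 and 1071 genes were separated, 785 and 531 of them shared with the comparison to the 11. With 1 of the 3 left out, list medians ran from 1.67 (without WT_246_11) to 2.59 for ribosomal proteins, 1.40 to 1.91 for the respiratory chain, 0.86 to 1.10 for mitochondrial ribosomal proteins, -0.0723 to 0.0138 for the securin list, -0.19 to -0.12 for deadenylation, -0.90 to -0.49 for cumulus markers and -0.17 to 0.0077 for chromatin. Against the 24, medians were 0.21 for mitochondrial protein-coding genes, 0.35 for the proteasome, -0.64 for maturation kinases, -0.25 for blood markers and -0.0157 for chromatin, and Clptm1l (0.53) and Lgalsl (0.76) turned. At 10 CPM or more they were 1.79 for the respiratory chain, 0.71 for the proteasome, -0.33 for deadenylation and -0.41 for the p53 list. With any gene that had a count, they were 0.0026 for deadenylation, 0 for cumulus markers and zygotic activation, and 0.0482 for the p53 list. Means of log2 values gave 0.0432 for the p53 list and -0.10 for chromatin, a pseudocount of 0.1 gave 1.73 for the respiratory chain, TMM gave -0.27 for the securin list, DESeq2 gave 0.0191 for deadenylation, and leaving out WT_246_12 and WT_246_14 (chosen after seeing the data) gave -0.0698 for chromatin. The causes were not tested. Of 81 separated genes named by the rule, 79 kept their direction against the 24 and all 81 under the other alternatives.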
